A study of Mus musculus with 12 samples.

Results

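The AMP-activated protein kinase (AMPK) is built from 7 subunit genes in the mouse, and this account follows their mRNAs together with those of 2 kinases that switch the enzyme on. The 9 genes, Prkaa1, Prkaa2, Prkab1, Prkab2, Prkag1, Prkag2, Prkag3, Stk11 and Camkk2, were taken by name from 18193 genes named on the array. The rule uses no measured value, but it was set with earlier results of these data known. They were read by 22 probe sets that the array annotation ties to 1 of these symbols alone, out of 45037 probe sets that are not controls. Of the 22, 20 passed a filter that left out the dimmest 40% of all probe sets, and every gene kept at least 1. The 2 that did not pass, 1431263_at for Prkag2 and 1424476_at for Camkk2, were not tested.

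RNA came from quadriceps muscle of C57Bl/6J mice treated for 6 days, and the labels name no genetic change in any group. The first group received GW1516 at 5 mg/kg/day and AICAR at 250 mg/kg/day together, the second AICAR at 250 mg/kg/day alone, the third GW1516 at 5 mg/kg/day alone and the fourth vehicle. AICAR is taken up by cells and turned into a mimic of AMP that activates AMPK, and GW1516 is a drug that binds and activates the nuclear receptor PPARδ. Each of the 12 arrays, 3 per group, carried RNA pooled from 3 mice. The labels do not say if any mouse entered more than 1 pool, and p-values here measure only how pools varied. The labels used here give no sex, age or route of dosing.

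AMPK is a heterotrimer of a catalytic α subunit, a scaffolding β subunit that also binds glycogen, and a γ subunit that binds AMP, ADP and ATP. A fall in cellular energy promotes phosphorylation of the α subunit's activation loop, which LKB1 (encoded by Stk11) carries out in energy stress and CaMKK2 in response to calcium. In skeletal muscle the enzyme acts on glucose uptake, fatty acid oxidation and mitochondrial content, and the γ subunit encoded by Prkag3 is known from fast glycolytic fibres. This switch works on the protein, while the arrays read only mRNA.

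Values are MAS5 signals, the linear brightness summary of an Affymetrix probe set, scaled by the authors so that every array has a trimmed mean of 200. Signals of different probe sets are not on a common scale, so levels are compared only within a probe set. Median signals ranged from 45.4 to 54.2, and correlations between arrays lay between 0.936 and 0.960. The 8 markers of skeletal muscle fibres on the list all passed the filter, with summed signals of 145309 to 187485 across the arrays. The second GW1516 array stood apart. Its summed signal for 6 fibroblast markers was 13493, against 24391 to 35089 on the other arrays, and for 6 macrophage markers 906, against 1284 to 1720. The fibroblast markers did not differ alike. Col1a1 read 1241 there, against 3730 to 7275 on the other arrays. Dcn read 6582, against 7057 to 8764, and Pdgfra 180, against 193 to 352. On the first principal component, which held 13.4% of the variance, the second and the third combination array had scores of 48.4 and 55.1, while the other arrays lay between -30.6 and 14.5. In whole muscle, fewer cells of a type and less RNA per cell cannot be told apart.

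No member of the set was called in any comparison. A probe set was called where its adjusted p in limma, by the Benjamini-Hochberg method over all 27022 probe sets tested, was below 0.05. Against vehicle, 0 of 20 member probe sets were called for the combination, where 0.292% of all probe sets were, 0 of 20 for AICAR, where 0.0111% were, and 0 of 20 for GW1516, where 0.0407% were. The count was also 0 of 20 for the combination against AICAR (0.00370% of all) and for the averages over both backgrounds of the AICAR effect (0.192%) and the GW1516 effect (0.0999%). Likewise 0 of 20 were called for the combination against GW1516 (0% of all), AICAR against GW1516 (0%) and the interaction (0%), which asks whether the drugs together differ from the sum of both. A moderated F test over the 4 groups called 0 of 20 and 0.0925% of all probe sets.

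At an unadjusted p under 0.05 the members were near the background. The count was 1 of 20 for the combination against vehicle (11.2% of all probe sets), 2 of 20 for AICAR against vehicle (7.21%) and 2 of 20 for GW1516 against vehicle (8.99%). It was 2 of 20 for the combination against AICAR (7.19%), 1 of 20 for the combination against GW1516 (10.3%) and 2 of 20 for AICAR against GW1516 (9.00%). For the average AICAR effect it was 1 of 20 (10.8%), for the average GW1516 effect 3 of 20 (9.23%), for the interaction 1 of 20 (6.35%) and for the F test 3 of 20 (10.6%).

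The differences of the 20 probe sets from vehicle went in both directions. They ran from -0.407 to 0.653 on the log2 scale in the combination, -0.361 to 1.02 under AICAR and -0.665 to 0.532 under GW1516. Their median therefore describes a common shift and not their size. The median log2 difference over the 20 probe sets was 0.060 for the combination against vehicle, 0.029 for AICAR and 0.030 for GW1516, beside -0.012, 0.0098 and -0.023 over all probe sets in the same comparisons. Arrays of drug and vehicle did not overlap for 2 of 20 members in the combination (18.0% of all probe sets in either direction), 3 of 20 for AICAR (17.4%) and 3 of 20 for GW1516 (14.0%). The number of arrays limits the precision. Standard errors of a difference between groups ran from 0.080 for Stk11 to 0.70 for the Camkk2 probe set 1424475_at, against a median of 0.23 over all probe sets.

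**Figure D1:**
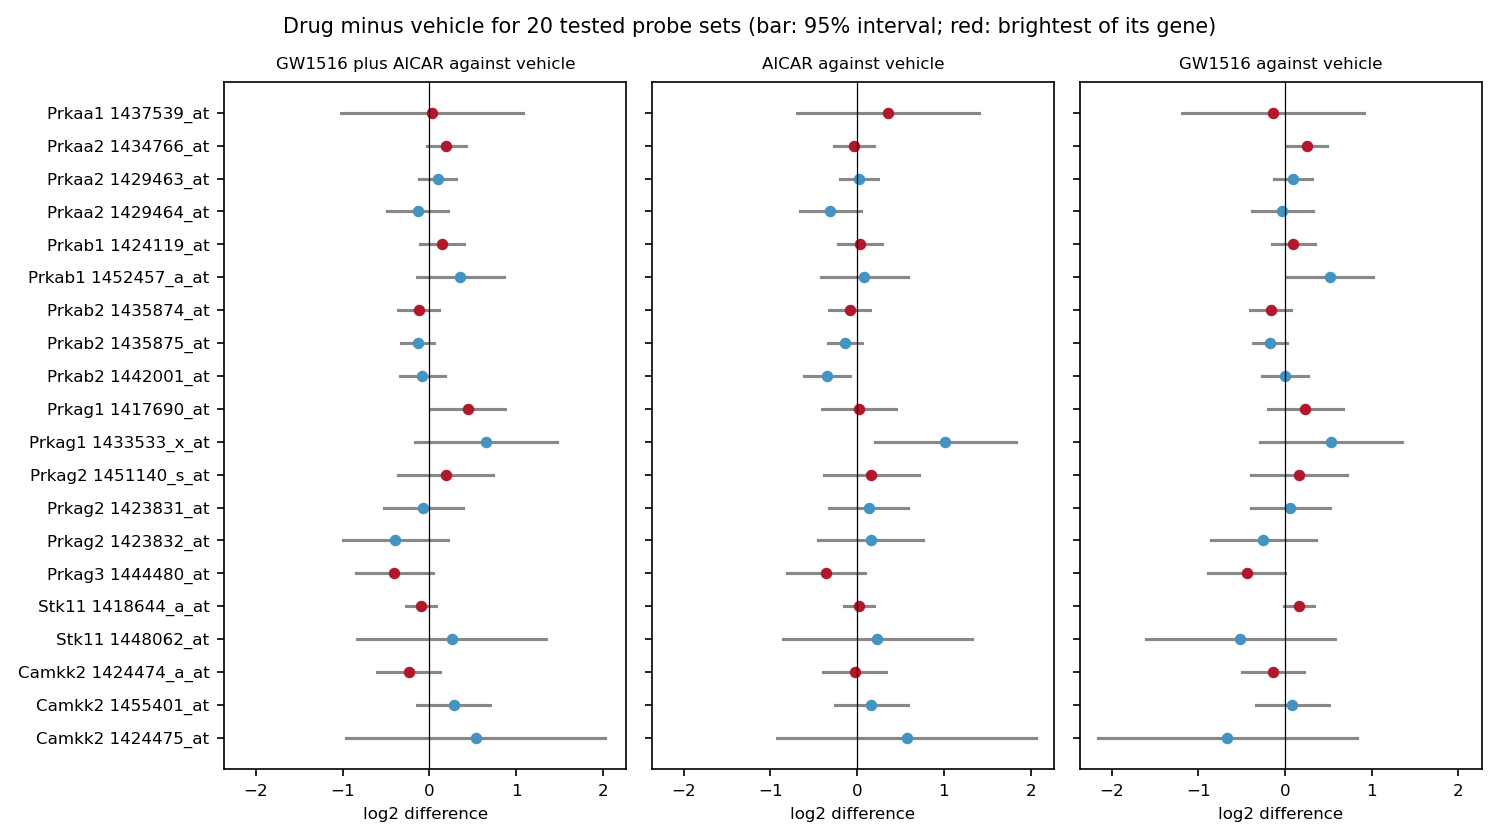
Log2 difference from vehicle (x axis) for each of the 20 tested probe sets (y axis), in panels for the combination, AICAR and GW1516. Points are limma estimates, bars their 95% intervals, and red points the brightest probe set of a gene. Most intervals span 0, and the widest belong to dim probe sets such as Camkk2 1424475_at.

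Of the catalytic subunits, Prkaa2 encodes α2, the main isoform of skeletal muscle, and its mean signal was higher in both groups given GW1516 than in vehicle, without passing the test. Its brightest probe set, 1434766_at, read 4566, 4989 and 5152 on the combination arrays and 4349, 4283 and 3905 on the AICAR arrays. It read 4707, 6205 and 4575 on the GW1516 arrays and 4607, 4196 and 4038 on the vehicle arrays. The highest value of the 12 was that of the second GW1516 array, and both GW1516 groups overlapped the vehicle group, whose first array was its highest. All AICAR arrays lay below all GW1516 arrays and below all combination arrays. How many of all probe sets separated these groups was not counted.

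The average difference made by GW1516 for this Prkaa2 probe set, with and without AICAR, was 0.24 ± 0.076 on the log2 scale (SE, 1.18-fold), with an unadjusted limma p of 0.00598 and an adjusted p of 0.379. GW1516 alone differed from vehicle by 0.26 ± 0.11 (adjusted p = 0.511, limma), with a 95% interval of 0.029 to 0.49. Without the second GW1516 array that difference was 0.12 (limma adjusted p = 0.834), and the average GW1516 difference was 0.17 (limma adjusted p = 0.354). The combination differed from vehicle by 0.20 ± 0.11 (limma adjusted p = 0.524) and AICAR by -0.03 ± 0.11 (limma adjusted p = 0.968). AICAR against GW1516 gave -0.29 ± 0.11 (limma adjusted p = 0.482). None of these passed the test.

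The other Prkaa2 probe sets did not show the same sizes. For the average GW1516 effect 1429463_at gave 0.08 ± 0.072 and 1429464_at 0.07 ± 0.12 (limma adjusted p = 0.744 and 0.870). The probe set 1429463_at differed from vehicle by 0.09 in the combination, 0.02 under AICAR and 0.09 under GW1516, and it was the member whose combination arrays all lay above the vehicle arrays, by a narrow gap of 3302 to 3432 against 2924 to 3275. The probe set 1429464_at differed by -0.14 in the combination, -0.31 under AICAR and -0.03 under GW1516. Where the 3 probe sets of 1 gene point apart, the array does not give a single value for that gene.

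Prkaa1, which encodes α1, the catalytic isoform common in other tissues, was dim. Its 1 probe set, 1437539_at, read 56.4, 54.9 and 22.6 on the combination arrays and 63.2, 40.7 and 54.1 on the AICAR arrays. It read 21.4, 70.5 and 33.1 on the GW1516 arrays and 57.9, 32.6 and 35.0 on the vehicle arrays. The spread within groups was as wide as any gap between them, and the standard error of a difference was 0.49 on the log2 scale.

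The start of Prkaa2 is shown because this member had the lowest unadjusted p of the set for the average GW1516 effect. RefSeq places the gene on chromosome 4 of GRCm38.p6, minus strand, and the 250 bases before its start, chr4:105109899-105110148, hold 70% G or C, a share at the 91.2 percentile of 32851 such windows. Capitals would mark any of 3 motifs searched on both strands: CAGCTG, an E-box of the kind bound by myogenic factors, AGGTCA, a nuclear receptor half-site, and TGTTTAC, a forkhead motif. None of these letters occurs in the window.
Prkaa2: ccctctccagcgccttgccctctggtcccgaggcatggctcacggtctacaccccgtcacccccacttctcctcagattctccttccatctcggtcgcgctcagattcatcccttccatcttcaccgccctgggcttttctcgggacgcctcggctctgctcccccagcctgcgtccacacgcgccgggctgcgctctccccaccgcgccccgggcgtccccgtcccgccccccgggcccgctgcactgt

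Prkab2 encodes β2, the main scaffold of skeletal muscle. All 3 of its probe sets had mean log2 signals level with or below vehicle in all 3 drug groups. The differences ran from -0.35 to -0.00064, and none was called. They share the vehicle arrays, and probe sets of 1 gene are not separate observations. The brightest, 1435874_at, read 5174, 5593 and 5324 on the combination arrays, 5633, 5509 and 5378 on the AICAR arrays, 5839, 4194 and 5802 on the GW1516 arrays, and 5844, 5388 and 6313 on the vehicle arrays. The lowest value was again on the second GW1516 array, and each drug group overlapped the vehicle group. Differences were -0.12 ± 0.11 in the combination, -0.08 ± 0.11 under AICAR and -0.16 ± 0.11 under GW1516 on the log2 scale (limma adjusted p = 0.730, 0.907 and 0.693). Without the second GW1516 array the last of these was -0.0040.

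A second Prkab2 probe set, 1442001_at, gave the lowest unadjusted p of the members for AICAR against vehicle. It read 3023, 3284 and 2588 on the AICAR arrays and 4084, 3338 and 3882 on the vehicle arrays, so the groups did not overlap, with a gap of 3284 against 3338. The difference was -0.35 ± 0.12 on the log2 scale, with an unadjusted limma p of 0.0132 and an adjusted p of 0.589. On the combination arrays the probe set read 3091, 3780 and 3820 and on the GW1516 arrays 3522, 3428 and 4378. The differences from vehicle were -0.08 and -0.00064. Without the second GW1516 array the GW1516 difference of this probe set was 0.065, above vehicle.

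Prkab1 encodes β1, the scaffold more typical of liver, and its brightest probe set varied little. The probe set 1424119_at read 240 to 299 over the 12 arrays. It differed from vehicle by 0.14 ± 0.12 in the combination, 0.03 ± 0.12 under AICAR and 0.10 ± 0.12 under GW1516. A dimmer probe set, 1452457_a_at, read 143, 148 and 153 on the GW1516 arrays, against 92.3, 95.5 and 125 on the vehicle arrays. These groups did not overlap, and the difference of 0.52 ± 0.23 had a limma adjusted p of 0.544. The combination arrays read 148, 126 and 124, where 148 and 126 lay above the vehicle range and 124 inside it. The AICAR arrays read 84.2, 167 and 93.5, on both sides of the vehicle range and inside it.

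Prkag3, the γ3 subunit, differed from vehicle in the same direction on every drug array, but not by a common size. The probe set 1444480_at, the only one for this gene, read 2059, 3361 and 3066 on the combination arrays and 2890, 3007 and 2688 on the AICAR arrays. It read 3185, 1792.5 and 3446 on the GW1516 arrays and 3585, 3643 and 3785.5 on the vehicle arrays. All 9 drug arrays were below all 3 vehicle arrays, which 405 of the 27022 probe sets tested (1.50%) also showed, and no other member did. The vehicle arrays were tight, while the combination and GW1516 groups each held 1 array far below the rest.

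Means for Prkag3 were 2829 ± 683 in the combination, 2862 ± 161 under AICAR, 2808 ± 889 under GW1516 and 3671 ± 103 in vehicle (SD, n = 3 each). On the log2 scale the combination differed from vehicle by -0.41 ± 0.21 (1.33-fold lower, limma adjusted p = 0.494), AICAR by -0.36 ± 0.21 (1.28-fold lower, limma adjusted p = 0.742) and GW1516 by -0.44 ± 0.21 (1.36-fold lower, limma adjusted p = 0.555). The 3 differences share the vehicle arrays, so they are not separate observations. Their 95% intervals were -0.85 to 0.038, -0.81 to 0.084 and -0.89 to 0.0018, so none was called.

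Single arrays weighed on Prkag3. Without the second GW1516 array, the GW1516 difference was -0.15 (limma adjusted p = 0.915), while the AICAR difference stayed at -0.36 with a limma adjusted p of 0.443 and the combination had 0.204. Without the first combination array, the combination's difference was -0.19 (limma adjusted p = 0.743). With only the AICAR and vehicle arrays in the fit, where the spread of the other groups does not enter, the AICAR adjusted p in limma was 0.0561, the lowest for any member under any setting. Summed signals of muscle fibre markers were 168850 to 176045 in the combination, 157677 to 158657 under AICAR and 187485, 149923 and 151742 under GW1516, against 145309 to 152638 in vehicle. The combination and AICAR arrays lay above the vehicle range, as did the first GW1516 array, while the other GW1516 arrays lay inside it. The part of these markers in the Prkag3 result was not tested.

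The window before the Prkag3 start is shown because this member lay below vehicle on all 9 drug arrays. RefSeq places Prkag3 on chromosome 1 of GRCm38.p6, minus strand, at chr1:74738922-74749471, and the 250 bases before the start listed, chr1:74748956-74749205, lie inside those outer ends because a longer transcript begins upstream. Its GC share was 52.4%. Capitals mark the CAGCTG motif, which begins 40 bases before the start. Over all 32851 windows, 13% held CAGCTG, 14% AGGTCA and 3.17% TGTTTAC. Of 11 windows listed for the members, 1 held CAGCTG, 1 of those of Prkag2 held AGGTCA and 0 held TGTTTAC. A match describes the letters and not a site in use.
Prkag3: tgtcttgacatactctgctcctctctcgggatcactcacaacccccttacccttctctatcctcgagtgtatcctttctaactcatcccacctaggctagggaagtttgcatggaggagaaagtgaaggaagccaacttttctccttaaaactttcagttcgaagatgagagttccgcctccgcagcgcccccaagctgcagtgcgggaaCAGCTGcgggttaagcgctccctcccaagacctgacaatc

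**Figure D2:**
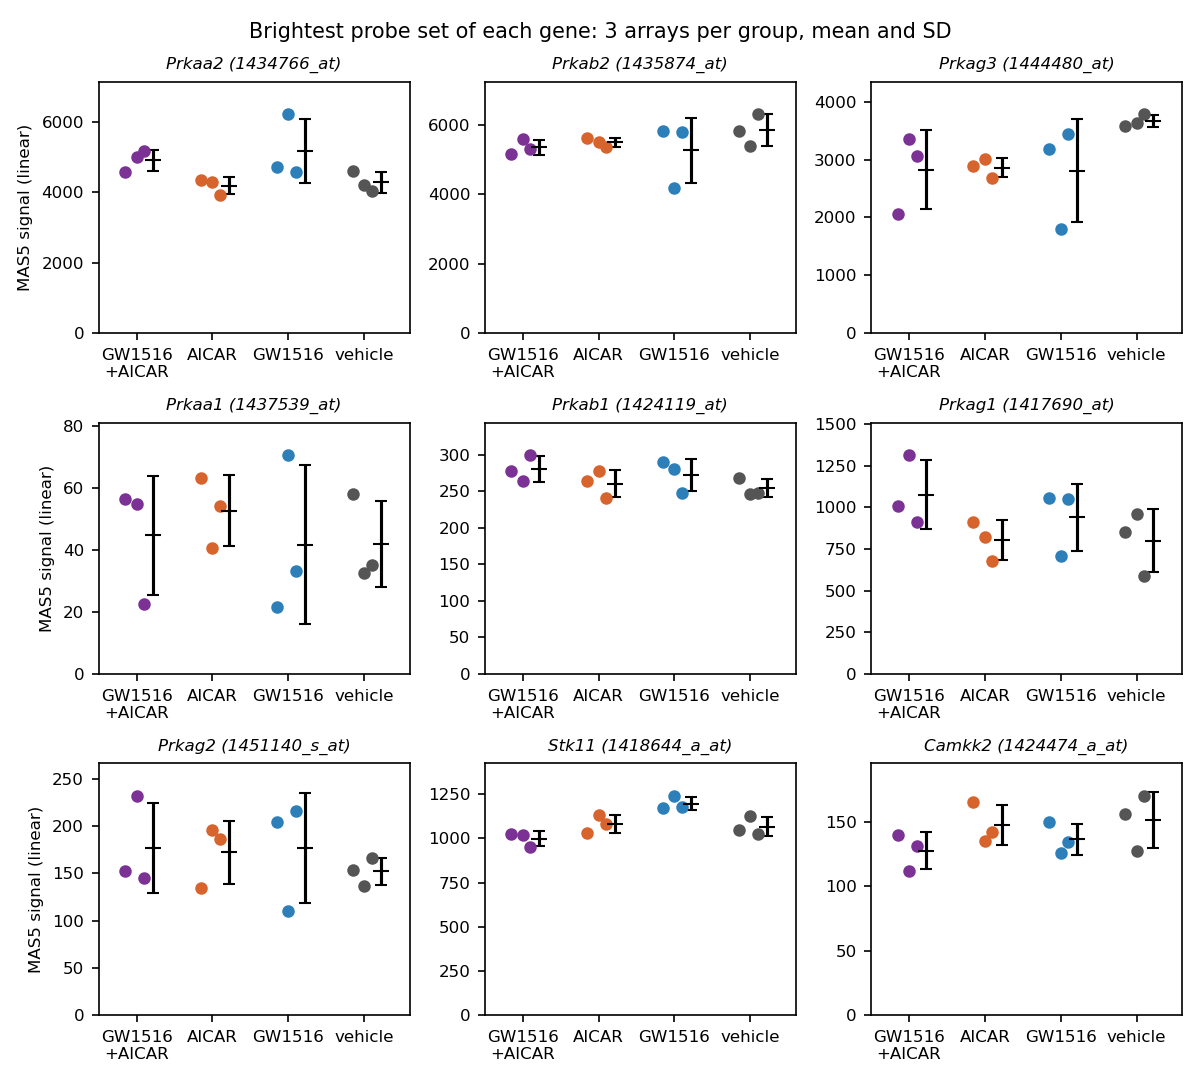
MAS5 signal (y axis, linear, from 0) of the brightest probe set of each of the 9 genes in the 4 groups (x axis). Points are arrays, 3 per group, with the mean and SD beside them. Prkag3 shows all drug arrays below the vehicle arrays, which read 3585 to 3785.5, and 1 low array each in the combination and GW1516 groups.

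Prkag1 encodes γ1, the widely expressed γ subunit. Its brightest probe set, 1417690_at, read 1007, 1313 and 914 on the combination arrays, 914, 821 and 676 on the AICAR arrays, 1057, 711 and 1053 on the GW1516 arrays, and 853, 962 and 590 on the vehicle arrays. Every drug group overlapped the vehicle group. The combination differed from vehicle by 0.44 ± 0.20 (1.36-fold, limma adjusted p = 0.433), the lowest adjusted p of the members in that comparison. Without the second combination array the Prkag1 difference was 0.29, and without the third vehicle array it was 0.23.

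The other Prkag1 probe set, 1433533_x_at, carries the suffix Affymetrix gives to probes that may bind other transcripts. It read 137, 131 and 170 on the AICAR arrays, against 72.3, 55.2 and 92.1 on the vehicle arrays, with no overlap. The difference of 1.02 ± 0.38 on the log2 scale had a limma adjusted p of 0.610. The brightest probe set gave 0.02 ± 0.20 for the same comparison, so the readings of Prkag1 under AICAR did not have a common size. On the combination arrays 1433533_x_at read 184, 50.7 and 153, and on the GW1516 arrays 99.1, 129 and 86.7.

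Prkag2 encodes γ2, known for its part in the heart. Its brightest probe set, 1451140_s_at, read 110 to 231 over the 12 arrays, with the lowest on the second GW1516 array and the highest on the second combination array. Differences from vehicle were 0.19 ± 0.26 in the combination, 0.16 ± 0.26 under AICAR and 0.16 ± 0.26 under GW1516. The probe set 1423831_at read 74.0 to 125 and 1423832_at read 42.2 to 82.6, and for the combination these gave -0.07 and -0.39. The probe sets of Prkag2 thus pointed apart within a comparison, and the lowest limma adjusted p of the 3 for the combination against vehicle was 0.650. For the average GW1516 effect 1423832_at gave -0.40 ± 0.20 (limma adjusted p = 0.563).

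Stk11, which encodes LKB1, had the smallest spread within groups of all members, 0.064 on the log2 scale. Its brightest probe set, 1418644_a_at, read 1027, 1021 and 948 on the combination arrays and 1030, 1130 and 1081 on the AICAR arrays. It read 1171, 1238 and 1176 on the GW1516 arrays and 1046, 1129 and 1024 on the vehicle arrays. The GW1516 arrays were all above those of the other groups, and the combination arrays were all below those of GW1516. GW1516 and vehicle arrays did not overlap for 14.0% of all probe sets in either direction. The share for the other pairs of groups was not counted.

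The combination differed from GW1516 alone in Stk11 by -0.26 ± 0.080 on the log2 scale (1.20-fold lower), with an unadjusted limma p of 0.00591 and an adjusted p of 0.331. GW1516 differed from vehicle by 0.17 ± 0.080 (limma adjusted p = 0.570), the combination by -0.09 ± 0.080 (limma adjusted p = 0.712) and AICAR by 0.02 ± 0.080 (limma adjusted p = 0.977). The interaction was -0.28 ± 0.11, with an unadjusted limma p of 0.0276 and an adjusted p of 0.773. None of the comparisons passed the test. A second Stk11 probe set, 1448062_at, was dim, with signals of 13.0 to 55.2, and its GW1516 difference of -0.52 ± 0.51 lay on the other side of 0. So did its combination against GW1516, at 0.77 ± 0.51, its interaction, at 0.54 ± 0.72, and its combination against vehicle, at 0.26 ± 0.51. Its AICAR difference from vehicle, 0.23 ± 0.51, lay on the same side.

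Camkk2 encodes CaMKK2, the calcium-responsive kinase, and 3 of its 4 probe sets were tested. Its brightest probe set, 1424474_a_at, read 112 to 140 on the combination arrays, 135 to 165 on the AICAR arrays, 126 to 150 on the GW1516 arrays and 127 to 170 on the vehicle arrays. The groups overlapped. The combination differed from vehicle by -0.24 ± 0.17, while the probe set 1455401_at gave 0.28 ± 0.20 for the same comparison, and 1424475_at had the widest within-group spread of the members, 0.97 on the log2 scale.

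Over the 7 genes with more than 1 probe set tested, all probe sets of a gene lay on the same side of 0 in 11 of 21 comparisons with vehicle. The second GW1516 array held the highest or the lowest value of the 12 for 10 of the 20 members, 5 highest and 5 lowest, against 30.2% of all probe sets. The third AICAR and the second combination array each did so for 6 members (15.2% and 19.1% of all probe sets), and the other arrays for 1 to 4 (11.8% to 20.6%). Every Prkaa2 probe set was among those of the second GW1516 and the third AICAR array, and probe sets of 1 gene are not separate observations.

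**Figure D3:**
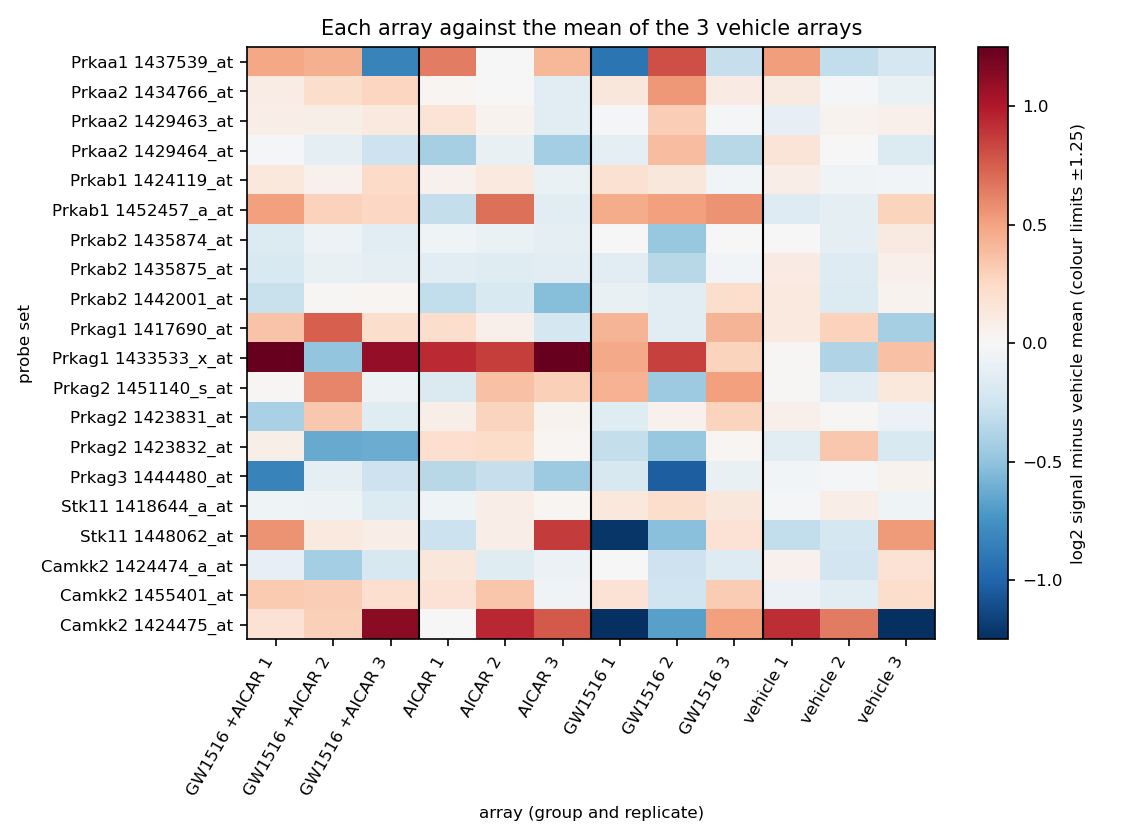
Log2 signal of each array minus the mean of the 3 vehicle arrays, in colour, for the 20 tested probe sets (rows) on the 12 arrays (columns, by group and replicate). The second GW1516 array is high for Prkaa2 and low for Prkag3 and for the Prkab2 probe sets 1435874_at and 1435875_at. Dim probe sets of Prkaa1, Prkag1, Stk11 and Camkk2 vary most within groups.

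For each member, 1 gene outside the set was picked as the closest in pattern by Pearson correlation of log2 signals over the 12 arrays. These were Zfand5 for Prkaa2 (r = 0.94, Spearman's rho = 0.83), Prxl2b for Prkab2 (r = 0.95, rho = 0.80), Slc37a4 for Prkag3 (r = 0.94, rho = 0.86), Smarce1 for Stk11 (r = 0.90, rho = 0.82) and Fgd1 for Camkk2 (r = 0.88, rho = 0.85). For the others they were Acyp1 for Prkaa1 (r = 0.86), Rbm19 for Prkab1 (r = 0.88), Lyrm9 for Prkag1 (r = 0.86) and BC029722 for Prkag2 (r = 0.92). Without the 2 arrays farthest from the median of the member, r was lowest for Prkag1, at 0.67, and was 0.85 for Prkaa2, 0.75 for Prkab2, 0.87 for Prkag2, 0.79 for Prkag3 and 0.76 for Stk11. The second GW1516 array was among those 2 for each of these but Prkag1. For Prkaa1, Prkab1 and Camkk2, r was then 0.76, 0.81 and 0.87. These are descriptions of 12 arrays that share groups and a scale, and the best of many genes.

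The rest of the pathway was read through lists of LKB1 partners, other upstream kinases, phosphatases and regulators, AMPK-related kinases and AMPK substrates, in which 44 genes were tested by their brightest probe set. Camkk1 was not analysed here, and Ppm1e and Brsk1 were below the filter. Against vehicle, 1 of 44 was called in the combination (0.292% of all probe sets), 0 of 44 for AICAR (0.0111%) and 0 of 44 for GW1516 (0.0407%). At an unadjusted p under 0.05 there were 6 of 44 in the combination (11.2% of all probe sets), 3 of 44 for AICAR (7.21%) and 8 of 44 for GW1516 (8.99%). The median log2 difference over the 44 was 0.016 in the combination, 0.026 for AICAR and 0.099 for GW1516, beside -0.012, 0.0098 and -0.023 over all probe sets in the same comparisons.

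The called gene was Pfkfb3, of the AMPK substrates, a bifunctional enzyme that makes fructose 2,6-bisphosphate, an activator of glycolysis. It read 907, 492 and 779 on the combination arrays, 1668, 1551 and 1092 on the AICAR arrays, 2122, 1907 and 1342 on the GW1516 arrays, and 3954, 3226 and 3151 on the vehicle arrays. It fell in the combination by 2.29 on the log2 scale (SE 0.22, 4.87-fold lower, limma adjusted p = 0.000822). Among the 18 substrates tested it was the 1 called, and it was also called lower in the average AICAR effect (-1.30 ± 0.16, limma adjusted p = 0.0125) and the average GW1516 effect (-0.99 ± 0.16, limma adjusted p = 0.0248). With each array left out in turn the first 2 of these were called in 12 of 12 fits, and the average GW1516 effect in 5 of 12, with an adjusted p of 0.0980 in limma without the first vehicle array. AICAR alone had a limma adjusted p of 0.144 and GW1516 alone 0.247.

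Other substrates were not called. Acacb, the acetyl-CoA carboxylase that makes the malonyl-CoA restraining fatty acid entry into mitochondria, differed from vehicle by 0.39 ± 0.12 in the combination, 0.18 ± 0.12 under AICAR and 0.48 ± 0.12 under GW1516 (limma adjusted p = 0.227, 0.778 and 0.282). Its value on the second GW1516 array was 4196, against 2836 and 2957 on the other GW1516 arrays. Mff, a mitochondrial fission factor, differed by -0.37 ± 0.098 under GW1516 (limma adjusted p = 0.282).

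Among the 9 phosphatases and regulators tested, 0 were called. Ppp2cb, a catalytic subunit of protein phosphatase 2A, differed in the combination by 0.28 ± 0.090 and Ppm1a, a phosphatase of the PP2C family, by 0.27 ± 0.097 (limma adjusted p = 0.253 and 0.306). Sesn1, a stress-induced sestrin, differed by 0.60 ± 0.24 under GW1516 (limma adjusted p = 0.499), with 1576 on the second GW1516 array against 699 and 710 on the other GW1516 arrays. That value stood far above every other array, where Sesn1 read 535 to 756.

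Of the 11 AMPK-related kinases tested, 0 were called. Mark4, a microtubule affinity-regulating kinase, lay above vehicle in each drug group, by 0.41 ± 0.15 in the combination, 0.40 ± 0.15 under AICAR and 0.33 ± 0.15 under GW1516 (limma adjusted p = 0.333, 0.610 and 0.546). Its 9 drug arrays read 159 to 209, against 135 to 145 in vehicle, with no overlap, and 0.962% of all probe sets had every drug array above every vehicle array. Nuak1 and Mark1 gave 0.36 ± 0.22 and 0.30 ± 0.21 under GW1516. Nuak1 read 721 on the second GW1516 array, against 326 and 364 on the other GW1516 arrays and 311 to 397 in vehicle. Among the 4 LKB1 partners, 0 were called, and the sizes closest to the threshold were 0.15 ± 0.10 for Cab39, 0.29 ± 0.21 for Strada and -0.09 ± 0.077 for Stradb under GW1516. Cab39 read 2686 on the second GW1516 array, against 1908 and 2228 on the other GW1516 arrays and 1973 to 2081 in vehicle. Of the 2 other upstream kinases tested, Map3k7 differed by 0.13 ± 0.10 and Tab1 by -0.12 ± 0.20 under AICAR.

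**Figure D4:**
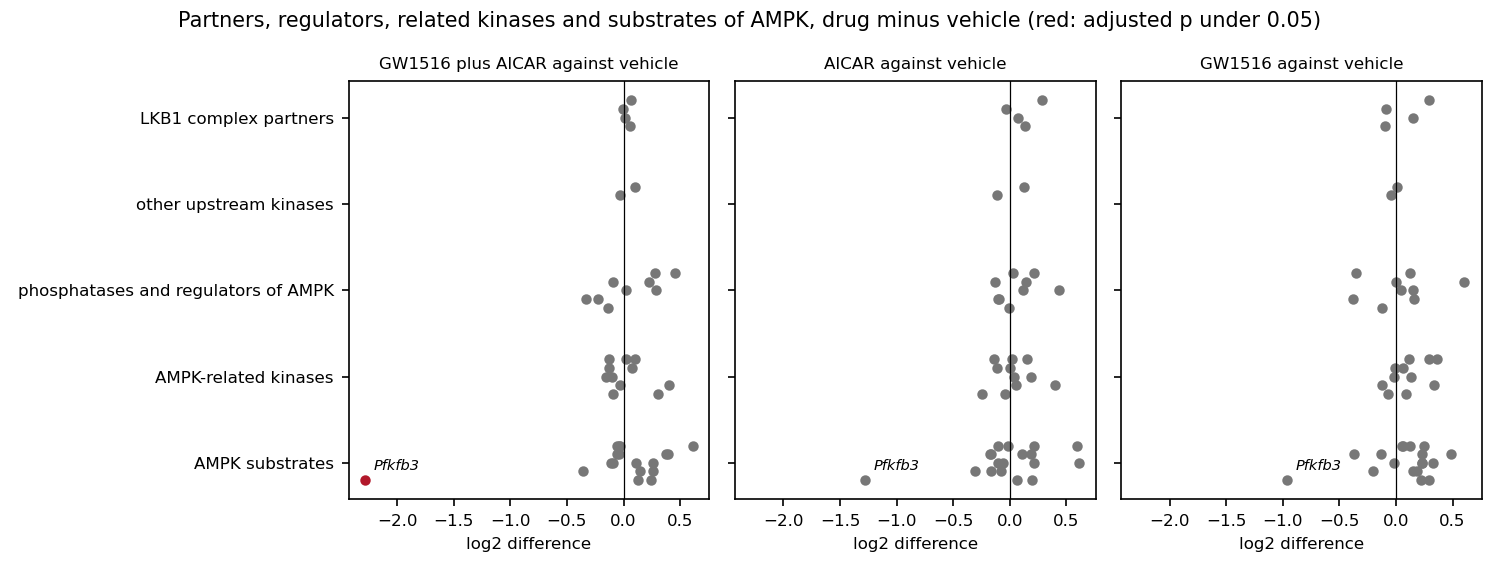
Log2 difference from vehicle (x axis) for the 44 pathway genes tested, in 5 lists (y axis), in panels for the combination, AICAR and GW1516. Each point is a gene, and red marks an adjusted p under 0.05. Pfkfb3 lies at -2.29 in the combination, and every other gene stays within about 1 of 0.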

How the data were processed

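The deposited intensity values were linear MAS5 signals, per the submitters' processing notes, 1 per probe set, and the 12 arrays shared a trimmed mean of 200. Detection calls were not used, and the sources used here give no MAS5 version, scanner or genome build. Probe sets were named from the array annotation, and all 22 member probe sets matched a gene table by gene ID. Signals below 1 were set to 1 (3531 of 540444 values) before log2. The dimmest 40% of 45037 probe sets, below a mean signal of 28.2, were left out, which kept 27022. limma 3.58.1 in R 4.3.3 fitted a mean per group over all 12 arrays, with a trend in the variance, 8 residual and 6.04 prior degrees of freedom, two-sided tests and Benjamini-Hochberg adjustment over all probe sets within each of 9 contrasts. Every member gene was named. Of each pathway list, called genes and up to 3 others of smallest p against vehicle were named. The members and lists were chosen with earlier results of these data known, and leaving out arrays for Pfkfb3 was chosen after seeing the data. Alternatives were other normalizations, pseudocounts, filters, variance settings, units of the fit, thresholds, array weights, the groups compared alone, a term for the replicate number, and each array left out. The code was tested on simulated data. Figures used matplotlib 3.10.9 in Python 3.11.15.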

Additional observations from a re-analysis of the deposited data

How the results depend on the processing

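The count of member probe sets called was 0 under each of the 246 combinations of a comparison and an alternative that were run, leaving out each array in turn included (0 to 0). Beside these counts, 0 to 5 members had an unadjusted limma p under 0.05. Of 1989 recomputed differences of the members, 1945 moved by less than 1 SD between replicates or not at all, and 44 by more. Many of the 1945 could not move. A change of filter, variance setting, threshold or replicate term leaves a difference as it was, as does leaving out an array of a group not compared. The 1945 is therefore not a measure of how stable the differences are. Of the 44, 29 came from averaging a gene's probe sets, 11 from centring arrays on their median and 4 from leaving out the second GW1516 array. With the dimmest 60% left out Prkaa1 gave no value, and fits on only the groups compared were run for the 6 comparisons of 2 groups alone. Median centring shifted AICAR against vehicle by -0.12 for every probe set, the combination against vehicle by -0.079 and GW1516 against vehicle by 0.036. The replicate numbers did not pair the arrays: deviations of same-numbered arrays correlated between -0.087 and 0.053 over 18 pairs, and those of other arrays between -0.065 and 0.074 over 36. With the number as a replicate block, 0 members were called in any of 10 tests, and the lowest adjusted p of the members per test ran from 0.375 to 0.803 in limma. With 3 pools per group, the width of the intervals limits which differences could be called, and probe sets with signals near the filter had the widest.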
